A study of Mus musculus with 18 samples.

Results

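The comparison described here is that of wild-type mouse macrophages given the disaccharide GM with wild-type macrophages given water. Its members are the 6 wild-type GM and water libraries, 3 in each group, of 18 libraries in 6 groups of 3, and they were chosen by genotype and treatment as the labels give them. The cells were bone marrow-derived macrophages of C57BL/6J mice, grown in complete medium to which supernatant of L929 cells had been added. On day 7 of differentiation both groups were moved to IMDM without serum and held for 24 h with water or with GM (GlcNAc-MurNAc). The knockout libraries and the wild-type libraries given MDP enter only fits that are named as such, and the dose of GM is not given in the sources used here. According to the labels the libraries of a group are biological replicates, but separate animals or cultures are not named, so each p-value measures the spread between these libraries, which may be partly technical.

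GM is the disaccharide that repeats along the glycan strands of bacterial peptidoglycan. Macrophages sense pieces of the bacterial wall with receptors such as TLR4 at the surface and NOD2 in the cytoplasm. TLR4 signals through MyD88 to NF-kB and through TRIF to interferon regulatory factors, and type I interferon made on the second route then induces antiviral genes through ISGF3. NF-kB binds kB motifs and ISGF3 binds interferon-stimulated response elements (ISRE). The series' title calls GM a TLR4 agonist, and the comparison asks which genes of wild-type macrophages differ in level after it.

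The 6 libraries held 16876067 to 20615960 counts and mitochondrial genes took 3.10% to 3.79% of them. Levels are given as CPM, counts scaled to a common library size with TMM, a scaling that sets the bulk of genes level between libraries, and its factors were 0.877 for water replicate 3 and 0.943 to 0.997 for the others. Lyz2 was at 21120 to 25834 CPM, Csf1r at 614 to 870 and Adgre1 at 703 to 996, so these macrophage markers of the labelled cell type were present in every library. Other members of the list of 21 macrophage markers varied more between libraries. Aif1 was at 30.9, 25.6 and 1.77 CPM with water and 4.28, 24.5 and 2.81 with GM. Cd14 was at 51.8, 51.0 and 141 CPM with water and 475, 265 and 533 with GM, and none of the 21 passed by edgeR. Lists of markers of other cell types held genes at 0 in all 6 libraries and genes with counts. Retnlg of the neutrophil list, Mcpt4 and Tpsb2 of mast cells, Gzma of T and killer lymphocytes and Car1 of red cells were at 0, whereas Mmp8 of the neutrophil list was at 1230.1 to 2517 CPM, Il7r of the lymphocyte list at 499.7 to 978, Kit of the mast cell list at 15.6 to 51.2 and Ppbp of the red cell and megakaryocyte list at 12.8 to 343. Tlr4 was at 155, 149 and 229 CPM with water and 192, 179 and 184 with GM (edgeR quasi-likelihood, log2 fold change 0.06, SE 0.19, adjusted p = 1.00). Nod2 was at 16.1, 12.2 and 10.5 CPM with water and 17.2, 27.6 and 12.4 with GM (log2 fold change 0.56, SE 0.32, adjusted p = 0.98), and for both receptors the groups overlapped. In bulk RNA such as this, fewer cells of a type and less RNA per cell cannot be told apart.

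The response that passed the test was made of genes that were higher with GM. They included acute-phase and iron-binding proteins (Saa3, Lcn2), a complement factor (Cfb), surface proteins (Sema7a, Cd40, Adora2a, Gpr84, Clec4e), enzymes of nitric oxide, prostaglandin and cyclic AMP metabolism (Nos2, Ptges, Pde4b) and interferon-stimulated genes (Oasl1, Isg15, Rsad2). Of 15450 genes tested, 94 rose, which is 0.608% of the genes, and 0 fell (edgeR quasi-likelihood F test on the 6 libraries, Benjamini-Hochberg adjusted p below 0.05, 2-sided). At an unadjusted p below 0.05, 731 of the 15450 genes were higher and 244 lower. The DESeq2 test called 338 higher and 18 lower, together 2.30% of the genes. With sample weights, limma voom called 2295 higher and 2299 lower, together 29.7%, and its counts in lists are to be read against that share. The last method gives each library a weight of its own, and these weights are not given here. Counts of list members that rose are by the edgeR test wherever no other tool is named, and other tools called more members in many lists. The median log2 fold change was 2.26 over the genes that rose, from 0.75 to 8.78, and -0.03 over all genes tested. At least 2-fold changes made up 90 of the 94, at least 4-fold changes 57 and at least 16-fold changes 17. Protein-coding genes were 91 of them and long noncoding RNAs 3. Members of the 35 program lists or 11 cell type lists used here were 51, and 43 were in none of the lists. In all 94 each GM library was above each water library, which held for 1123 genes (7.27%) of all tested, and each GM library was below each water library in 731 genes (4.73%).

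The number of calls changed with the library left out. Each of these fits has 1 library fewer, which also lowers the power of the test. The median log2 fold change of the 94 stayed between 2.23 and 2.34 in these fits, which share most libraries with the main fit. Without water replicate 3, 231 genes (1.5%) rose and 57 (0.369%) fell, and 93 of the 94 were among those that rose, the exception being Tnnt2, a troponin subunit at under 3 CPM. Without GM replicate 1, none of the 94 passed by edgeR, with adjusted p from 0.051 to 0.27, although 551 genes were higher and 113 lower at an unadjusted p below 0.05. Without water replicate 1, water replicate 2, GM replicate 2 or GM replicate 3, 10, 20, 42 and 15 genes passed, all higher. None of the 94 was called in all 6 of these fits, and 10 were called in 5 of them (Sema7a, Ccl5, Cd40, Cfb, Adora2a, Il6, Pde4b, AW112010, Smpdl3b and Oasl1). No log2 fold change of the 94 changed sign in any of the 6 fits, which the choice of genes whose groups do not overlap fixes. Without the filter on low counts, where 24854 genes were tested, 87 of the 94 were called, and Nos2, Lcn2, Rsad2, Ifi206 and Dusp16 were not (edgeR, adjusted p 0.051 to 0.13).

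**Figure D1:**
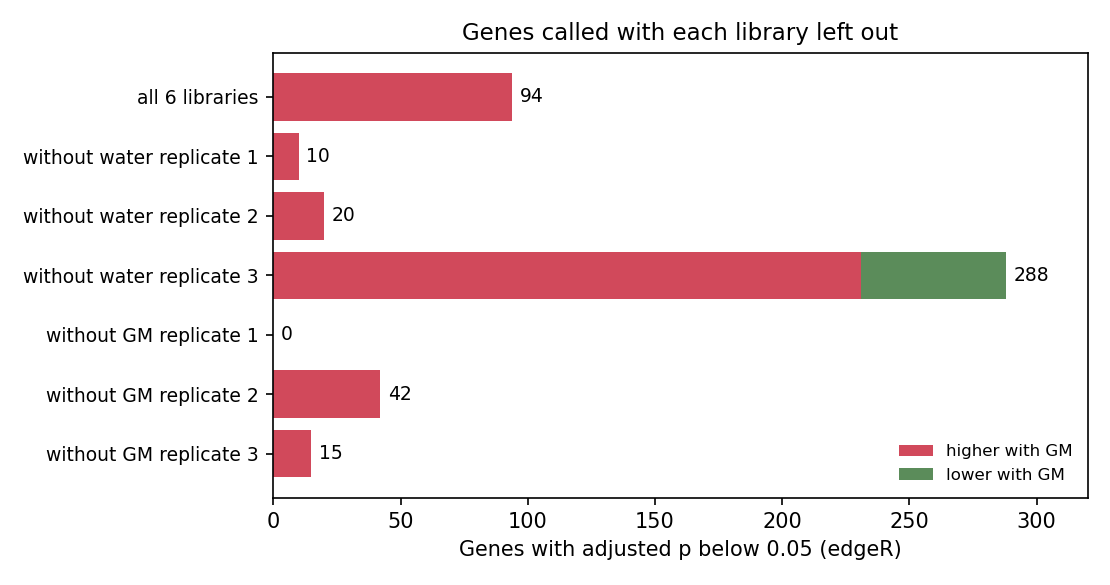
Bars give the number of genes with an adjusted p below 0.05 (edgeR) in the fit of all 6 libraries and with each library left out, split by direction. The number runs from 0 without GM replicate 1 to 288 without water replicate 3, and genes lower with GM appear only without water replicate 3.

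Promoter sequence was at hand for 67 of the 94 genes, as the 250 bases before the start of the gene in RefSeq (build GRCm38.p6). Both strands were searched for the core of an ISRE (GAAA, any 2 bases, GAAA) and for a kB motif (GGGA, any 2 bases, TTCC), and overlapping matches were all counted. The ISRE letters were in 6 of the 67 promoters (8.96%), against 3.48% of 10763 tested genes with a promoter, and the kB letters were in 5 (7.46%), against 1.54%. Among 28 promoters of the list of interferon-stimulated antiviral genes, 11 (39.3%) held the ISRE letters. A match describes the letters and is no evidence that a factor binds there. The 6 sequences that follow show where the letters lie in genes of different roles that are described further on. They are written 5′ to 3′ on the strand of the gene, with the matched letters in capitals.
Isg15 (chr4:156200819-156201068, minus strand): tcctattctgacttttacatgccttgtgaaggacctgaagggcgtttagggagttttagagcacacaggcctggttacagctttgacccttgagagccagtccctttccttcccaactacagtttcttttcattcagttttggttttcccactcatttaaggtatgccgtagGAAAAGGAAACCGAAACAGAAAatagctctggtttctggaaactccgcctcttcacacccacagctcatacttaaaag
Rsad2 (chr12:26456453-26456702, minus strand): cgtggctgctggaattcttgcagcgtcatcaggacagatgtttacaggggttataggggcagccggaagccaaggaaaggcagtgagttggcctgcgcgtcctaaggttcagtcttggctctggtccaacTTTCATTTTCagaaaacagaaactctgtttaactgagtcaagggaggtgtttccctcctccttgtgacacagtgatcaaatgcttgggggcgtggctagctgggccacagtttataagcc
Serpinb9 (chr13:33004291-33004540, plus strand): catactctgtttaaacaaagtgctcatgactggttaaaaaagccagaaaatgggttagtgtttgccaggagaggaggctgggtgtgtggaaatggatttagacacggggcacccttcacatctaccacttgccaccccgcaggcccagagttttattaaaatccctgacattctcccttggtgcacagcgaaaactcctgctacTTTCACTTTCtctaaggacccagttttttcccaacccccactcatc
Saa3 (chr7:46715677-46715926, minus strand): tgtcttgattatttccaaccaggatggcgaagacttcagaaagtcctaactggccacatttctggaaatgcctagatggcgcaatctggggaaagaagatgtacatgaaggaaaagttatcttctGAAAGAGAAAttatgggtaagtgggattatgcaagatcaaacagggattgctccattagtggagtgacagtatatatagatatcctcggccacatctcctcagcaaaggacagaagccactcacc
AW112010 (chr19:11050567-11050816, minus strand): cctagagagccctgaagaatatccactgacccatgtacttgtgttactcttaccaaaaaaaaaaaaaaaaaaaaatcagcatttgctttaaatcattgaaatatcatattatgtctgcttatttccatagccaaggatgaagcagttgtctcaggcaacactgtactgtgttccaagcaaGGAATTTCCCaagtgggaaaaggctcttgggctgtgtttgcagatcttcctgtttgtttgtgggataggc
Nfkbia (chr12:55492648-55492897, minus strand): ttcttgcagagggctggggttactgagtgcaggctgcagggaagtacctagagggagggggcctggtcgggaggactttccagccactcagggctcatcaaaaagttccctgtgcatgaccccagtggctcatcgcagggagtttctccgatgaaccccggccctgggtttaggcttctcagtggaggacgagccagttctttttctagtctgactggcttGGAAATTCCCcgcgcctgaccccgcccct
Isg15 held 3 overlapping ISRE matches, which start 78, 72 and 66 bases before the gene. In Rsad2 the match starts 120 bases before the gene, in Serpinb9 46 and in Saa3 125, and those of Rsad2 and Serpinb9 read on the reverse strand. The kB match of AW112010 starts 70 bases before the gene and that of Nfkbia 29, both on the reverse strand.

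Among cell surface proteins, Sema7a had the smallest p of all genes and lies outside every list used. Sema7a (ENSMUSG00000038264, GRCm39 chromosome 9, 57847395 to 57870148) encodes a semaphorin held in the membrane by a lipid anchor. Its level was 24.00, 23.9 and 22.6 CPM with water and 113, 102 and 124 with GM (replicates 1, 2 and 3 in this order, as in all that follows). Its mean was 23.5 ± 0.759 CPM with water and 113 ± 10.6 with GM (SD, n = 3). The 3 water libraries lay close together and every GM library was more than 4-fold above each of them (edgeR, log2 fold change 2.26, SE 0.12, adjusted p = 0.0043). Cd40, the co-stimulatory receptor for CD40 ligand, was at 6.96, 8.52 and 7.24 CPM with water and 56.8, 47.5 and 63.8 with GM (log2 fold change 2.89, SE 0.17, adjusted p = 0.0043). Adora2a, an adenosine receptor that raises cyclic AMP, was at 8.32, 8.52 and 9.23 CPM with water and 35.97, 33.97 and 39.5 with GM (log2 fold change 2.07, SE 0.13, adjusted p = 0.0043). For both genes water replicate 3 lay with the other water libraries and the groups were far apart. Gpr84, a receptor of medium-chain fatty acids, was at 1.21, 1.16 and 0.774 CPM with water and 10.4, 9.93 and 9.82 with GM (log2 fold change 3.26, SE 0.26, adjusted p = 0.0077). Clec4e, the lectin Mincle that recognises mycobacterial glycolipids, was at 27.8, 28.4 and 51.3 CPM with water and 585, 353 and 704 with GM (log2 fold change 3.93, SE 0.38, adjusted p = 0.018). Marco, a scavenger receptor for bacteria and particles, was at 5.65, 7.67 and 10.7 CPM with water and 49.6, 32.4 and 64.1 with GM (log2 fold change 2.61, SE 0.34, adjusted p = 0.033). In Clec4e and Marco water replicate 3 was the highest water library and GM replicate 2 the lowest GM library, without overlap. Ramp3, a partner protein of calcitonin-family receptors, was at 4.54, 5.29 and 9.35 CPM with water and 34.2, 35.4 and 38.2 with GM (log2 fold change 2.49, SE 0.29, adjusted p = 0.026). Itgb8, the integrin subunit known for freeing TGF-beta from its latent form, was at 0.353, 0.365 and 0.221 CPM with water and 12.01, 4.40 and 12.9 with GM (log2 fold change 4.93, SE 0.54, adjusted p = 0.024). GM replicate 2 was well below the other GM libraries and still far above every water library. Of 35 G protein-coupled receptors 4 rose (Adora2a, Gpr84, Ccr7 and Ccrl2), of 35 Toll-like, lectin and scavenger receptors 2 (Cxcl16 and Marco), of 20 genes in the list of co-stimulatory and checkpoint ligands, where the lectin Clec4e was placed, 2 (Clec4e and Cd40) and of 27 adhesion molecules and integrins 1 (Itgb8), with list medians of 0.18, 0.01, 0.49 and 0.01 on the log2 scale and 0.08, 0.13, 0.86 and -0.08 without water replicate 3. Without GM replicate 1 the adjusted p of these 8 genes was 0.051 to 0.19.

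Of the G protein-coupled receptors that rose, Ccr7 and Ccrl2 bind chemokines or chemerin. Ccr7, the receptor that leads dendritic cells to lymph nodes, was at 135, 123 and 63.4 CPM with water and 482, 560.0 and 496 with GM (edgeR, log2 fold change 2.26, SE 0.29, adjusted p = 0.033), and water replicate 3 was the lowest library. Ccrl2, an atypical receptor that binds chemerin, was at 11.1, 15.5 and 20.2 CPM with water and 78.6, 57.04 and 100.2 with GM (log2 fold change 2.34, SE 0.29, adjusted p = 0.032). Neither passed without GM replicate 1 (adjusted p 0.19). Ccr7 is also a marker of mature dendritic cells, and the summed level of the 14 dendritic cell markers moved with it, from 339 to 665 CPM with water to 1466 to 2123 with GM. Without Ccr7 the other 13 summed to 276 to 530 CPM with water and 969 to 1563 with GM. Most of that sum lay in Fscn1 (mean 145 CPM with water and 628 with GM), Bst2 (150 and 299) and Cacnb3 (35.6 and 148). The means of Dpp4, Kmo, Itgae and Cd209a were lower with GM, and 8 of the 12 markers tested had a positive log2 fold change. Of the 12 dendritic cell markers tested, Ccr7 rose and the other 11 did not pass by edgeR on the 6 libraries, while the DESeq2 test and edgeR on all 18 libraries each called 4 higher and limma voom with sample weights called 5 higher and 3 lower. Of the 2 left untested for low counts, Xcr1 and Siglech were below 1 CPM in every library. The part of dendritic cell number in these levels was not tested.

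**Figure D2:**
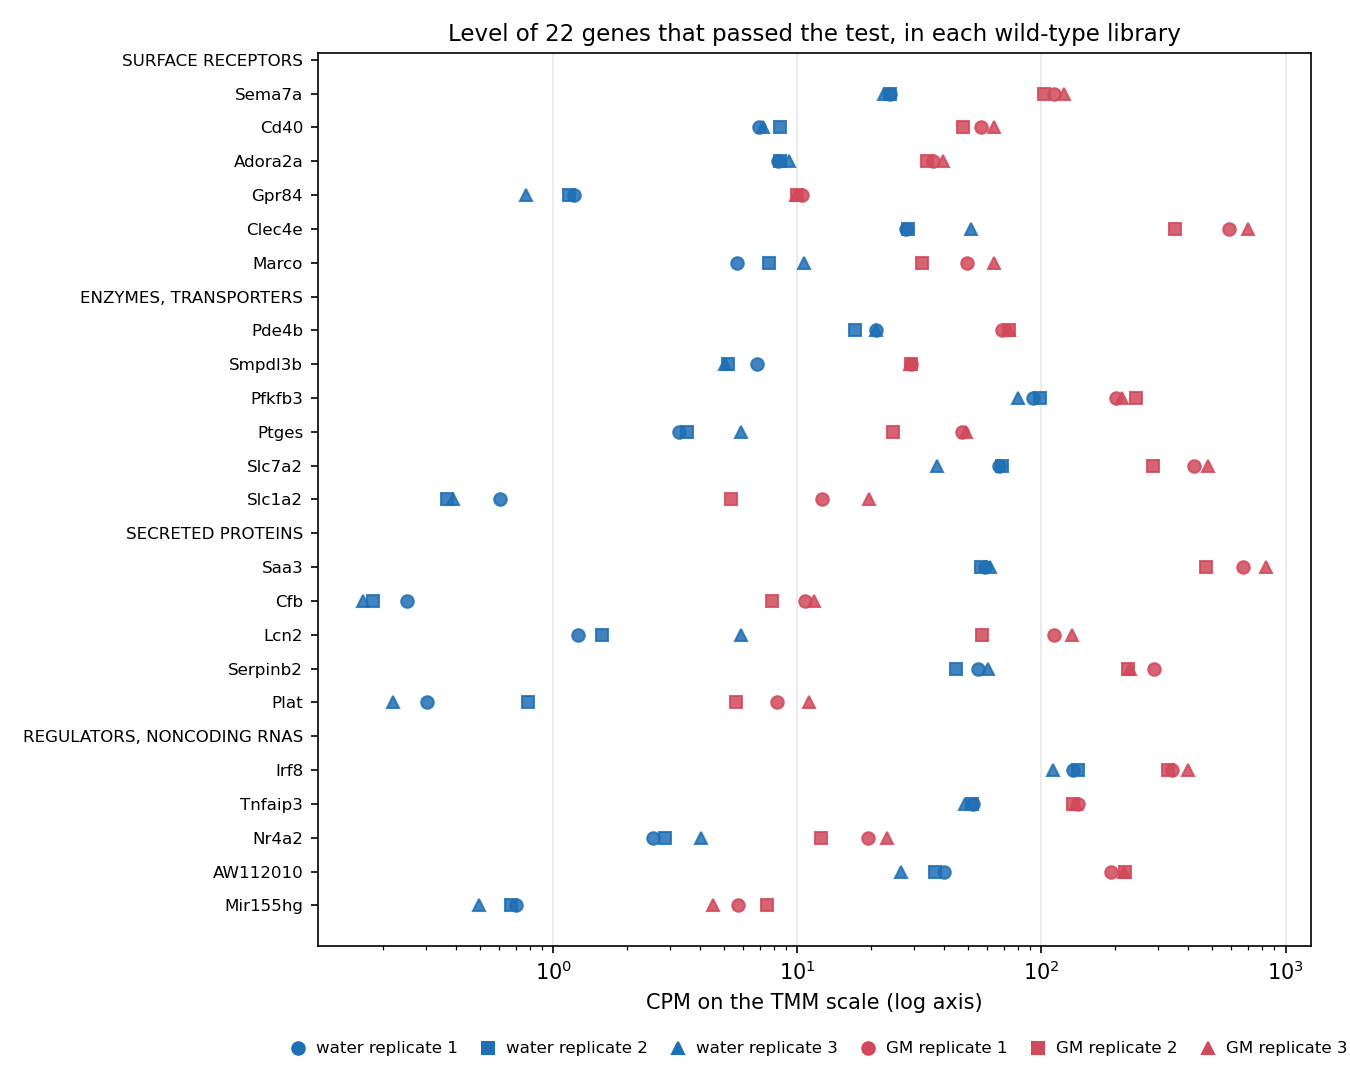
Each symbol is the CPM of 1 gene in 1 library, on a log axis, for 22 genes that passed the test, with water libraries in blue and GM libraries in red. In each gene every GM symbol lies to the right of every water symbol. Water replicate 3 is the water library nearest to GM in Adora2a, Clec4e, Marco, Ptges, Saa3, Lcn2, Serpinb2 and Nr4a2.

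Enzymes and transporters outside the cytokine lists rose over a wide range of sizes. Pde4b (ENSMUSG00000028525, GRCm39 chromosome 4, 101944740 to 102464456), the phosphodiesterase that breaks down cyclic AMP, was at 20.97, 17.2 and 20.96 CPM with water and 68.9, 73.6 and 73.3 with GM. Its mean was 19.7 ± 2.16 CPM with water and 71.9 ± 2.65 with GM (SD, n = 3), a difference that passed (edgeR, log2 fold change 1.87, SE 0.12, adjusted p = 0.0043). Smpdl3b, a lipid-anchored phosphodiesterase known to restrain Toll-like receptor signalling in macrophages, was at 6.86, 5.17 and 5.03 CPM with water and 29.1, 29.2 and 29.04 with GM (log2 fold change 2.35, SE 0.17, adjusted p = 0.0054). In both genes the 3 GM libraries were closer to each other, relative to their mean, than the 3 water libraries. Pfkfb3, which makes the fructose bisphosphate that speeds glycolysis, was at 92.4, 98.1 and 80.1 CPM with water and 202, 243 and 213 with GM (log2 fold change 1.28, SE 0.13, adjusted p = 0.021). By edgeR and by DESeq2 it was the 1 gene called of 25 genes of glycolysis and HIF-1 targets, of which limma voom with sample weights called 15 higher and 2 lower. Nos2, the inducible nitric oxide synthase, was at 2.62, 2.43 and 0.332 CPM with water and 142, 72.5 and 179 with GM (log2 fold change 6.18, SE 0.72, adjusted p = 0.027). Slc7a2, the cationic amino acid transporter that brings arginine into the cell, was at 66.9, 68.9 and 37.3 CPM with water and 421, 287 and 481 with GM (log2 fold change 2.78, SE 0.31, adjusted p = 0.024). For both arginine genes water replicate 3 was the lowest water library and GM replicate 2 the lowest GM library. Ptges, the prostaglandin E synthase induced in inflammation, was at 3.28, 3.53 and 5.86 CPM with water and 47.2, 24.7 and 49.2 with GM (log2 fold change 3.26, SE 0.37, adjusted p = 0.024). Slc1a2, a glutamate transporter best known from astrocytes, was at 0.605, 0.365 and 0.387 CPM with water and 12.6, 5.37 and 19.6 with GM (log2 fold change 4.76, SE 0.58, adjusted p = 0.029), and its GM libraries differed by more than 3-fold among themselves. The adjusted p of these 7 genes was 0.051 to 0.19 without GM replicate 1.

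Further enzymes, a pump and other proteins rose as well. Vnn3, of the vanin family of pantetheinases, was at 0.907, 0.608 and 1.11 CPM with water and 19.6, 10.5 and 24.7 with GM (edgeR, log2 fold change 4.37, SE 0.42, adjusted p = 0.018). Atp2b4, a calcium pump of the plasma membrane, was at 3.68, 4.99 and 3.04 CPM with water and 16.6, 17.2 and 13.9 with GM (log2 fold change 2.03, SE 0.24, adjusted p = 0.027). Pla1a, a phospholipase that acts on phosphatidylserine, was at 4.69, 3.10 and 3.15 CPM with water and 12.3, 16.2 and 13.4 with GM (log2 fold change 1.93, SE 0.24, adjusted p = 0.031). The water libraries of these 3 genes stayed below 6 CPM and no GM library fell below 10. Pmvk, a kinase of the mevalonate pathway, was at 13.4, 13.2 and 10.8 CPM with water and 34.5, 26.5 and 29.3 with GM (log2 fold change 1.27, SE 0.16, adjusted p = 0.032), while the other 22 cholesterol genes tested did not pass by edgeR and limma voom with sample weights called 10 of the list lower. Rnaset2a, an acid ribonuclease, was at 1.46, 1.95 and 1.77 CPM with water and 13.2, 11.1 and 18.9 with GM (log2 fold change 3.05, SE 0.28, adjusted p = 0.016). It has a close copy, Rnaset2b, and how the authors' counting treated reads shared by both is not stated, so its value is uncertain. AA467197, a small mitochondrial protein whose human counterpart is C15orf48, was at 19.5, 16.7 and 27.9 CPM with water and 80.6, 80.4 and 99.03 with GM (log2 fold change 2.02, SE 0.22, adjusted p = 0.022). Tamalin, a scaffold protein for metabotropic glutamate receptors, was at 6.50, 4.20 and 3.93 CPM with water and 21.1, 20.3 and 17.2 with GM (log2 fold change 2.00, SE 0.24, adjusted p = 0.029). Groups did not overlap in any of them, and none passed without GM replicate 1 (adjusted p 0.13 to 0.19).

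The genes that rose also included Saa3, Cfb and Lcn2 and 3 genes of the protease list. Saa3 (ENSMUSG00000040026, GRCm39 chromosome 7, 46361422 to 46365124), an acute-phase serum amyloid A made by macrophages, was at 58.7, 56.4 and 61.8 CPM with water and 672, 474 and 828 with GM. Its mean was 58.95 ± 2.69 CPM with water and 658 ± 178 with GM (SD, n = 3), a difference that passed (edgeR, log2 fold change 3.48, SE 0.23, adjusted p = 0.0043). Per unit of length it was at 249 FPKM on average with GM, a level near that of Ccr7 (255 FPKM) and above those of AW112010 (130) and Isg15 (116). Cfb (ENSMUSG00000090231, GRCm39 chromosome 17, 35075350 to 35081494), the factor B of the alternative complement pathway, was at 0.252, 0.183 and 0.166 CPM with water and 10.7, 7.83 and 11.7 with GM. Its mean was 0.200 ± 0.0457 CPM with water and 10.1 ± 2.00 with GM (SD, n = 3), a difference that passed (edgeR, log2 fold change 5.60, SE 0.33, adjusted p = 0.0043). By edgeR 1 of 18 complement genes rose, and limma voom with sample weights called 2 higher and 12 lower. Lcn2, which binds bacterial siderophores and so withholds iron, was at 1.26, 1.58 and 5.86 CPM with water and 112, 57.1 and 134 with GM (log2 fold change 5.12, SE 0.69, adjusted p = 0.037). Water replicate 3 held the highest Lcn2 level with water, and without that library the log2 fold change was 6.15. Lcn2 is also in the neutrophil list, whose 16 markers summed to 1581 to 2397 CPM with water and 1390 to 2689 with GM, overlapping ranges that Mmp8 makes up almost alone (1557, 1651 and 2330.3 CPM with water and 2517, 1804 and 1230.1 with GM). The median log2 fold change of the 13 neutrophil markers tested was 0.37, and 1.31 without water replicate 3. Lcn2 was the 1 of the 13 that edgeR and DESeq2 called, limma voom with sample weights called 6 higher, and the part of neutrophil number in the Lcn2 level was not tested. S100a8, a calcium-binding protein of neutrophils, was at 4.03, 4.81 and 36.00 CPM with water and 22.3, 7.19 and 11.8 with GM. Serpinb2, an inhibitor of plasminogen activators, was at 54.8, 44.8 and 60.1 CPM with water and 289, 226 and 232 with GM (log2 fold change 2.22, SE 0.17, adjusted p = 0.0064). Plat, the tissue plasminogen activator that Serpinb2 inhibits, was at 0.302, 0.791 and 0.221 CPM with water and 8.23, 5.58 and 11.1 with GM (log2 fold change 4.24, SE 0.55, adjusted p = 0.033). Serpinb9, the inhibitor of granzyme B whose promoter is printed above, was at 60.6, 62.8 and 84.2 CPM with water and 155, 174 and 149 with GM (log2 fold change 1.20, SE 0.16, adjusted p = 0.037). In these 3 genes the GM libraries lay above all water libraries, most widely in Plat. Of 25 proteases of the matrix and their inhibitors, these 3 rose and 22 did not pass by edgeR, against 5 called higher by DESeq2 and 11 higher and 3 lower by limma voom with sample weights. Without GM replicate 1 the adjusted p of the 6 genes was 0.051 to 0.21, and without water replicate 2 the log2 fold change of Plat was 4.94.

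Regulators that rose included inhibitors of NF-kB and transcription factors. Tnfaip3, the ubiquitin-editing enzyme A20 that ends NF-kB signalling, was at 52.3, 52.02 and 48.7 CPM with water and 141, 135 and 138 with GM (edgeR, log2 fold change 1.44, SE 0.10, adjusted p = 0.0043). Nfkbia, the inhibitor IkB-alpha whose promoter is printed above, was at 59.7, 62.9 and 73.8 CPM with water and 178, 164 and 155 with GM (log2 fold change 1.34, SE 0.13, adjusted p = 0.017). Nfkbiz, a nuclear IkB protein needed for some secondary response genes, was at 5.49, 3.35 and 4.59 CPM with water and 27.7, 17.7 and 33.98 with GM (log2 fold change 2.56, SE 0.31, adjusted p = 0.029). Nfkb2, the p100 subunit of the alternative NF-kB route, was at 94.8, 94.6 and 78.8 CPM with water and 190.1, 214 and 178 with GM (log2 fold change 1.12, SE 0.13, adjusted p = 0.027). Of 20 NF-kB subunits and feedback genes these 4 rose and 16 did not pass by edgeR on the 6 libraries. At an unadjusted p below 0.05, 14 were higher, DESeq2 called 9 higher, limma voom with sample weights 17 and edgeR on all 18 libraries 14. Irf8, which governs macrophage and dendritic cell development, was at 135, 141 and 111 CPM with water and 343, 329 and 399 with GM (log2 fold change 1.47, SE 0.15, adjusted p = 0.019). Irf7, the amplifier of type I interferon genes, was at 10.1, 26.1 and 13.4 CPM with water and 176, 171 and 197 with GM (log2 fold change 3.46, SE 0.37, adjusted p = 0.021), and its water libraries differed by more than 2-fold with replicate 2 the highest. Nr4a2, an orphan nuclear receptor induced by cyclic AMP and by Toll-like receptors, was at 2.57, 2.86 and 4.04 CPM with water and 19.5, 12.5 and 23.2 with GM (log2 fold change 2.54, SE 0.31, adjusted p = 0.029). Runx3, a Runt-family factor, was at 48.8, 40.5 and 43.3 CPM with water and 81.4, 86.1 and 74.7 with GM (log2 fold change 0.87, SE 0.12, adjusted p = 0.038). They were the 4 that rose by edgeR among 44 transcription factors of macrophage activation, of which DESeq2 called 10 higher and limma voom with sample weights 17 higher and 8 lower. The adjusted p of the 8 genes was 0.062 to 0.25 without GM replicate 1.

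Each of the 3 long noncoding RNAs that rose lies outside the lists. AW112010 (ENSMUSG00000075010, GRCm39 chromosome 19, 11021557 to 11033245), an RNA known to be induced in activated macrophages and reported to be translated, was at 39.98, 36.6 and 26.5 CPM with water and 194, 221 and 217 with GM. Its mean was 34.4 ± 7.02 CPM with water and 210.4 ± 14.7 with GM (SD, n = 3), a difference that passed (edgeR, log2 fold change 2.61, SE 0.18, adjusted p = 0.0052). Water replicate 3 was its lowest library and the GM libraries were all more than 4-fold above the highest water library. Mir155hg, the host transcript of the microRNA miR-155 that modulates inflammatory signalling, was at 0.706, 0.669 and 0.498 CPM with water and 5.70, 7.51 and 4.52 with GM (log2 fold change 3.23, SE 0.34, adjusted p = 0.021). It is the transcript of the host gene that was counted here, not the mature microRNA. U90926, a noncoding RNA of stimulated macrophages, was at 0 CPM in water replicates 1 and 2 and 0.055 in replicate 3, and at 9.49, 3.86 and 10.2 with GM. None of the 3 passed without GM replicate 1 (adjusted p 0.051 to 0.16).

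Interferon-stimulated antiviral genes rose in 7 of 35 members tested (Oasl1, Isg15, Herc6, Phf11d, Rsad2, Usp18 and Isg20), and the other 28 did not pass by edgeR on the 6 libraries. The DESeq2 test called 23 of the 35 higher and limma voom with sample weights 25, and each called 0 lower. Oasl1, which resembles the oligoadenylate synthetases and restrains Irf7 translation, was at 2.97, 4.93 and 5.09 CPM with water and 60.5, 46.4 and 71.2 with GM (edgeR, log2 fold change 3.78, SE 0.28, adjusted p = 0.0061). Isg15, a ubiquitin-like protein attached to other proteins, was at 5.85, 11.4 and 6.36 CPM with water and 80.2, 73.5 and 94.4 with GM (log2 fold change 3.39, SE 0.29, adjusted p = 0.012). Rsad2, the antiviral enzyme viperin, was at 26.3, 46.7 and 75.6 CPM with water and 456, 331 and 576 with GM (log2 fold change 3.20, SE 0.43, adjusted p = 0.037). Rsad2 differed almost 3-fold among the water libraries with replicate 3 the highest, whereas Isg15 was highest in water replicate 2, and neither overlapped with GM. The median log2 fold change of the 35 was 1.61, against -0.03 over all genes tested, and 1.48 without water replicate 3. All 35 had a positive sign, and 28 were higher at an unadjusted p below 0.05. In each of the related families 1 member passed by edgeR, namely Gbp6 of 18 guanylate-binding proteins and immunity GTPases, Ifi206 of 11 PYHIN genes and Slfn4 of 16 PARP and Schlafen genes. In this order the list medians were 1.22, 1.03 and 0.68, and 0.82, 0.74 and 0.50 without water replicate 3. At an unadjusted p below 0.05, 8, 6 and 9 members were higher and 0 lower, and the DESeq2 test called 6, 4 and 5 higher. Gbp6, an interferon-induced GTPase, was at 3.02, 4.56 and 2.54 CPM with water and 16.6, 17.1 and 19.5 with GM (log2 fold change 2.39, SE 0.26, adjusted p = 0.022). Ifi206, of a family that includes DNA sensors, was at 5.39, 14.9 and 5.86 CPM with water and 66.4, 89.8 and 70.4 with GM (log2 fold change 3.12, SE 0.43, adjusted p = 0.040), and without water replicate 2 its log2 fold change was 3.75. Slfn4, a Schlafen gene of activated macrophages, was at 0.756, 1.40 and 0.608 CPM with water and 10.6, 11.4 and 12.3 with GM (log2 fold change 3.63, SE 0.35, adjusted p = 0.018). Members of these families are close copies of each other and the treatment of shared reads is not stated, so the split of reads between them is uncertain. Without GM replicate 1 the adjusted p of these 6 genes was 0.062 to 0.20. In the fit without water replicate 3, 16 of the 35 antiviral genes, 5 of the 18 GTPases and 4 of the 11 PYHIN genes rose.

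As a list, the GTPases were lower in water replicate 3 than in any other library. Taken as the median over the 18 genes of log2(CPM + 0.5) relative to each gene's mean over the 6 libraries, the GTPase level was -0.18, -0.04 and -1.70 with water and 0.42, 1.13 and 0.41 with GM. Gbp2, an abundant member chosen after its values were seen, was at 105, 101 and 16.98 CPM with water and 201, 277 and 233 with GM, so that water replicates 1 and 2 were about 6-fold above water replicate 3. The antiviral genes were at -0.81, -0.26 and -1.41 with water and 0.74, 1.32 and 0.59 with GM on the same scale. In both lists GM replicate 2 was the highest library and the groups did not overlap.

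Antigen presentation by MHC class I and class II was covered by a list each. Of 19 genes of MHC class I presentation 2 rose, H2-T22 and Tapbpl, with a list median of 0.58, and 10 were higher at an unadjusted p below 0.05, 7 by the DESeq2 test and 11 by limma voom with sample weights. H2-T22, a nonclassical class I molecule, was at 86.9, 109.6 and 101 CPM with water and 185, 200.2 and 203 with GM (edgeR, log2 fold change 0.99, SE 0.13, adjusted p = 0.032), with the uncertainty of reads shared among class I genes. Tapbpl, a peptide editor of class I, was at 21.4, 20.9 and 20.5 CPM with water and 38.9, 46.04 and 37.7 with GM (log2 fold change 0.96, SE 0.12, adjusted p = 0.033), and its water libraries lay within 1 CPM of each other. Of 14 MHC class II genes 0 passed, with 0 at an unadjusted p below 0.05 and 0 by the DESeq2 test, while limma voom with sample weights called 8 lower. H2-Aa, a chain of the class II molecule, was at 1332, 1250.4 and 306 CPM with water and 515, 1206 and 539 with GM. Ciita, the master regulator of class II genes, was at 159, 135 and 4.31 CPM with water and 58.2, 135 and 64.2 with GM. For both, water replicate 3 was the lowest library, GM replicates 1 and 3 were next, and GM replicate 2 was near water replicates 1 and 2. H2-T22 and Tapbpl had an adjusted p of 0.19 without GM replicate 1.

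Cytokines and chemokines, the classic readout, rose in 8 of 33 members tested by edgeR (Ccl5, Il6, Il1b, Cxcl16, Tnf, Csf3, Il12b and Ccl22). The list median was 1.57, and the smallest p among them was that of Ccl5. At an unadjusted p below 0.05, 20 members were higher and 0 lower. The DESeq2 test called 16 higher, limma voom with sample weights 24 and edgeR on all 18 libraries 19, and each called 0 lower. Ccl5, a chemokine for T cells and monocytes, was at 33.4, 37.5 and 27.3 CPM with water and 751, 532 and 884 with GM (edgeR, log2 fold change 4.46, SE 0.25, adjusted p = 0.0043). Cxcl16, a membrane-bound chemokine that also acts as a scavenger receptor, was at 103, 102 and 79.2 CPM with water and 235, 288 and 253 with GM (log2 fold change 1.45, SE 0.15, adjusted p = 0.021). Il1b, the precursor of interleukin 1 beta, was at 7.11, 5.60 and 12.1 CPM with water and 758, 403 and 927 with GM (log2 fold change 6.39, SE 0.49, adjusted p = 0.0064), and Il6 at 0.555, 0.669 and 0.940 CPM with water and 113, 55.8 and 137 with GM (log2 fold change 7.13, SE 0.46, adjusted p = 0.0043). In Il1b, Il6 and Ccl5 GM replicate 3 was highest and GM replicate 2 lowest. Among the 94 genes GM replicate 2 was the lowest GM library in 60 and GM replicate 3 the highest in 49. Genes with both were not counted, and the shares over all genes tested were not taken. The adjusted p of Ccl5, Cxcl16, Il1b and Il6 was 0.051 to 0.14 without GM replicate 1.

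Metabolic and housekeeping programs held few or no calls by edgeR. None of the 26 respiratory chain, 15 LXR target, 31 fatty acid, 34 lysosomal, 28 unfolded protein, 24 NRF2 target, 28 DNA replication, 28 mitosis or 28 ribosomal protein genes tested passed in either direction by edgeR. At an unadjusted p below 0.05, 3 fatty acid genes, 1 unfolded protein gene and 1 NRF2 target were higher and 1 DNA replication gene was lower. The DESeq2 test called 3 fatty acid genes higher and 1 DNA replication gene lower, and limma voom with sample weights called 19 NRF2 targets higher and 25 mitosis, 22 ribosomal protein and 16 DNA replication genes lower. As lists, the NRF2, mitosis, ribosomal protein and DNA replication genes overlapped in level between the groups. In each of them GM replicate 2 lay nearer to water replicates 1 and 2 than water replicate 3 did. In the other 5 lists limma voom with sample weights called genes both ways, 6 higher and 11 lower of the unfolded protein genes, 8 and 7 of the fatty acid genes, 5 and 5 of the lysosomal genes, 1 and 3 of the LXR targets and 1 and 2 of the respiratory chain genes. Over all genes tested this method called 29.7%, 2295 higher and 2299 lower, so a few calls do not set a list apart. The median log2 fold change was 0.23 for NRF2 targets, -0.72 for mitosis, -0.32 for DNA replication and -0.24 for ribosomal proteins, and between -0.09 and -0.03 for the other 5 lists. Without water replicate 3 these medians were 0.95, -1.15, -0.63 and -0.28, and between -0.25 and 0.05 for the other 5. Likewise 0 of 25 genes of the citrate cycle, 0 of 21 of tryptophan and NAD metabolism and 0 of 17 tripartite motif genes passed by edgeR, with 1, 3 and 7 of them under an unadjusted p of 0.05 and 1, 1 and 3 called higher by the DESeq2 test. Acod1, the enzyme that makes itaconate from the citrate cycle, was at 36.9, 38.03 and 139 CPM with water and 739, 611 and 780.2 with GM (log2 fold change 3.32, SE 0.58, adjusted p = 0.10). It did not pass although the groups were far apart, and without water replicate 3, where the water levels left are 36.9 and 38.0 CPM, its adjusted p was 0.0038 by edgeR. Nampt, which makes the NAD precursor NMN, was at 198, 215 and 447 CPM with water and 436, 290.2 and 449 with GM, so that water replicate 3 lay among GM replicates 1 and 3.

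**Figure D3:**
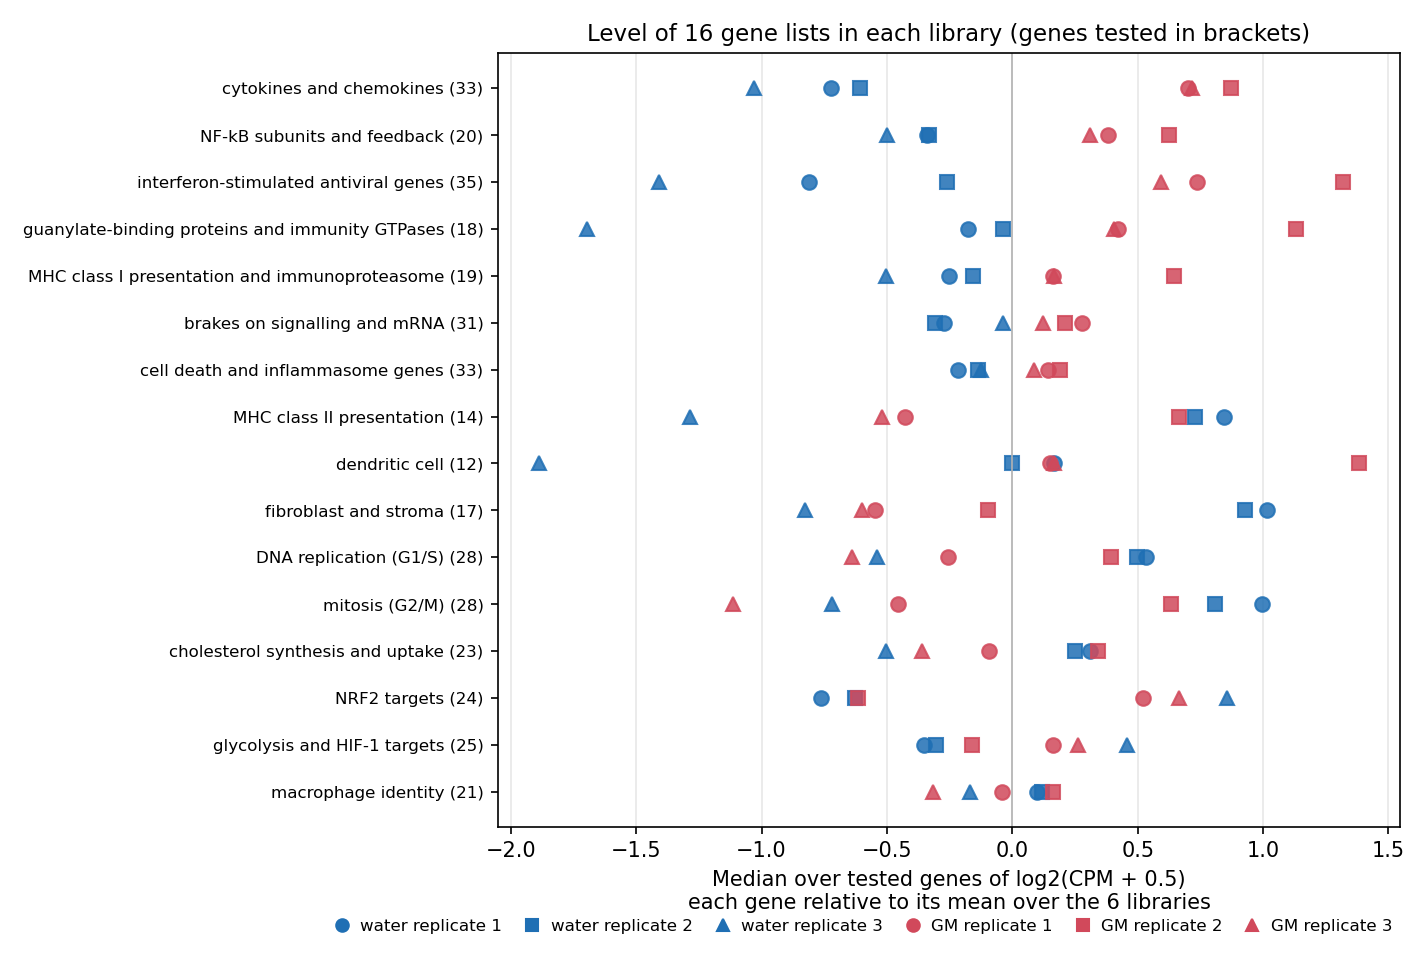
Each symbol is the level of 1 gene list in 1 library, as the median over its tested genes of log2(CPM + 0.5) relative to each gene's mean over the 6 libraries. In the upper 7 lists every GM symbol lies to the right of every water symbol, whereas in the lists from MHC class II presentation down the groups overlap and water replicate 3 lies away from water replicates 1 and 2.

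No gene lower with GM passed the test, and the 10 with the smallest p had an adjusted p of 0.069 to 0.32. Arhgap25, a GTPase-activating protein of blood cells, was at 172, 169.9 and 173 CPM with water and 128, 125 and 133 with GM (edgeR, log2 fold change -0.42, SE 0.10, adjusted p = 0.23). Tfrc, the transferrin receptor that takes up iron, was at 187, 162 and 149 CPM with water and 85.5, 99.6 and 125 with GM (log2 fold change -0.69, SE 0.17, adjusted p = 0.31). Socs6, of the suppressors of cytokine signalling family, was at 110.3, 115 and 98.2 CPM with water and 76.9, 84.5 and 78.5 with GM (log2 fold change -0.43, SE 0.11, adjusted p = 0.31). In these 3 genes the groups did not overlap, and the largest gap was that between the lowest water and the highest GM library of Arhgap25. Gm10123, annotated as a processed pseudogene, had the smallest p of the lower genes and was at 233, 242 and 203 CPM with water and 74.3, 81.1 and 120.4 with GM (log2 fold change -1.30, SE 0.21, adjusted p = 0.069). Rps27a-ps3 was at 11.5, 10.95 and 10.01 CPM with water and 4.17, 5.10 and 5.25 with GM (log2 fold change -1.16, SE 0.19, adjusted p = 0.072). Both are pseudogenes, and reads of a parent gene cannot be told apart from their own here, so their values are uncertain. Esyt3, which tethers membranes, was at 9.38, 8.15 and 6.69 CPM with water and 4.06, 2.15 and 3.36 with GM (log2 fold change -1.34, SE 0.30, adjusted p = 0.22), Cdc42ep1 was at under 2 CPM and the other 3 (Gm10767, Gm47512 and a gene without a symbol, ENSMUSG00000121235) were at under 4.

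Without water replicate 3, the 57 genes that fell were led, by their p, by Cxcl12, Ltbp2, Acta2, Fcgrt and Tagln. Cxcl12, a chemokine of stromal cells, was at 40.6, 38.8 and 4.31 CPM with water and 4.33, 5.63 and 3.48 with GM. Acta2, the smooth muscle actin, was at 33.4, 30.5 and 11.3 CPM with water and 10.6, 11.97 and 10.98 with GM. Tagln, an actin-binding protein of smooth muscle, was at 30.3, 27.7 and 4.48 CPM with water and 4.50, 6.28 and 3.72 with GM. In all 3 genes, which were chosen after their values were seen, water replicates 1 and 2 were high and water replicate 3 lay with the GM libraries. Water replicate 3 was at or below the highest GM library in 44 of the 57 and below every GM library in 27. The shares over all genes tested were not taken, so these counts are a description only. The list of 18 fibroblast and stroma markers, 17 of them tested, moved with them, with a summed level of 515, 474 and 126 CPM with water and 138, 188 and 147 with GM, a median log2 fold change of -1.08 and 0 of 17 positive. No marker of the list was at 0 in all 6 libraries, and Lum was below 1 CPM in each and at 0 in water replicate 3. By edgeR 0 of the 17 passed on all 6 libraries, 4 were lower at an unadjusted p below 0.05, the DESeq2 test called 1 and limma voom with sample weights 15 lower, and without water replicate 3 edgeR called 4 lower. The part of stromal cell number in the 57 genes was not tested.

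The water libraries were not alike. Water replicates 1 and 2 differed little, whereas water replicate 3 lay apart from both, with lower levels of the MHC class II, mitosis and stroma lists and a higher level of NRF2 targets. Over the 8678 genes with a mean of at least 10 CPM, 14 (0.161%) were 2-fold or more apart between water replicates 1 and 2, 1142 between water replicates 1 and 3 and 1049 between water replicates 2 and 3. Between water replicate 3 and GM replicate 3 the number was 341, fewer than between water replicate 3 and either other water library. The biological coefficient of variation, the spread between replicates beyond counting noise, was 35.4% over the 3 water libraries, 27.6% over the 3 GM libraries and 5.93% over water replicates 1 and 2 alone. In water replicate 3, 359 genes were at least 2-fold above both other water libraries and 600 at least 2-fold below both, against at most 6 in either direction in water replicate 1 or 2. GM replicate 2 held 125 and 75 such genes against the other GM libraries, GM replicate 3 held 41 and 108, and GM replicate 1 held 6 and 0.

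**Figure D4:**
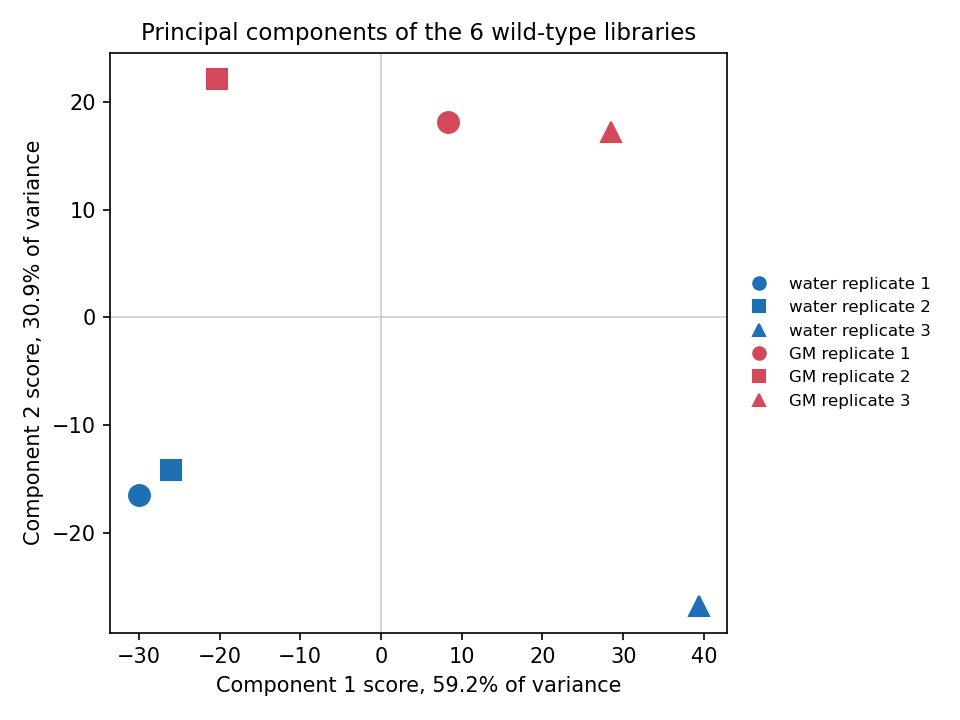
Each symbol is 1 library at its scores on the first principal component (59.2% of the variance) and the second (30.9%) of log2(CPM + 0.5) over 8678 genes. The first component runs from water replicates 1 and 2 (-30.0 and -26.0) to water replicate 3 (39.4) with the GM libraries in between (8.3, -20.3 and 28.5), and the second separates water (-26.8 to -14.2) from GM (17.2 to 22.1).

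The 8 genes farthest down in water replicate 3 had different roles. Asgr2, a subunit of the asialoglycoprotein receptor, was at 122, 102 and 1.77 CPM with water and 7.79, 49.6 and 0.610 with GM. Ciita, given above, and H2-DMb2, which helps load class II molecules, were among the same 8, and H2-DMb2 was at 62.1, 44.4 and 0.664 CPM with water and 10.5, 50.8 and 11.96 with GM. Dpp4, a surface peptidase, was at 36.9, 31.1 and 0.608 CPM with water and 10.6, 38.3 and 12.2 with GM. Water replicate 3 was the lowest library in H2-DMb2 and Dpp4, whereas in Asgr2 GM replicate 3 was lower still, and in all 3 genes GM replicate 2 was the highest GM library. Rnase6, an antimicrobial ribonuclease, was at 26.3, 21.2 and 0.166 CPM with water and 2.52, 9.71 and 1.77 with GM, and Fndc5, Trp53i11 and Dscam also had under 1 CPM in water replicate 3. At the other end, Procr, the endothelial protein C receptor, was at 79.7, 111 and 911 CPM with water and 835, 279.9 and 913 with GM. Cxcl3, a neutrophil chemokine, was at 2.82, 11.01 and 301 CPM with water and 439, 131 and 363 with GM, and Cxcl2 at 3.08, 2.37 and 39.2 CPM with water and 172, 84.4 and 192 with GM. Hilpda, a lipid droplet protein induced by low oxygen, was at 8.77, 17.04 and 216 CPM with water and 83.3, 22.1 and 131 with GM. In Cxcl3 and Procr water replicate 3 lay within the range of the GM libraries, in Cxcl2 below all of them and in Hilpda above all of them. Ppbp, Il36g, Tlcd2 and Cdkn1c were the other 4, and none of these 16 genes passed the test of GM against water.

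The axis on which water replicate 3 departs was present among the GM libraries too. Of the 359 genes higher in water replicate 3, 353 (98.3%) were higher in GM replicate 3 than in GM replicate 2 and 345 (96.1%) were higher in GM replicate 1 than in GM replicate 2. Of the 600 lower genes, 565 (94.2%) were lower in GM replicate 3 than in GM replicate 2, and 571 (95.2%) were lower in GM replicate 1. Over all 8678 genes the shares were 45.8% higher for GM replicate 3 and 50.9% for GM replicate 1. The correlation across genes between the departure of water replicate 3 from the other water libraries and the difference of GM replicate 3 from GM replicate 2 was 0.81, given as a description because genes are not independent and the GM pair was chosen after the values were seen. The libraries of the 2 differences are disjoint.

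**Figure D5:**
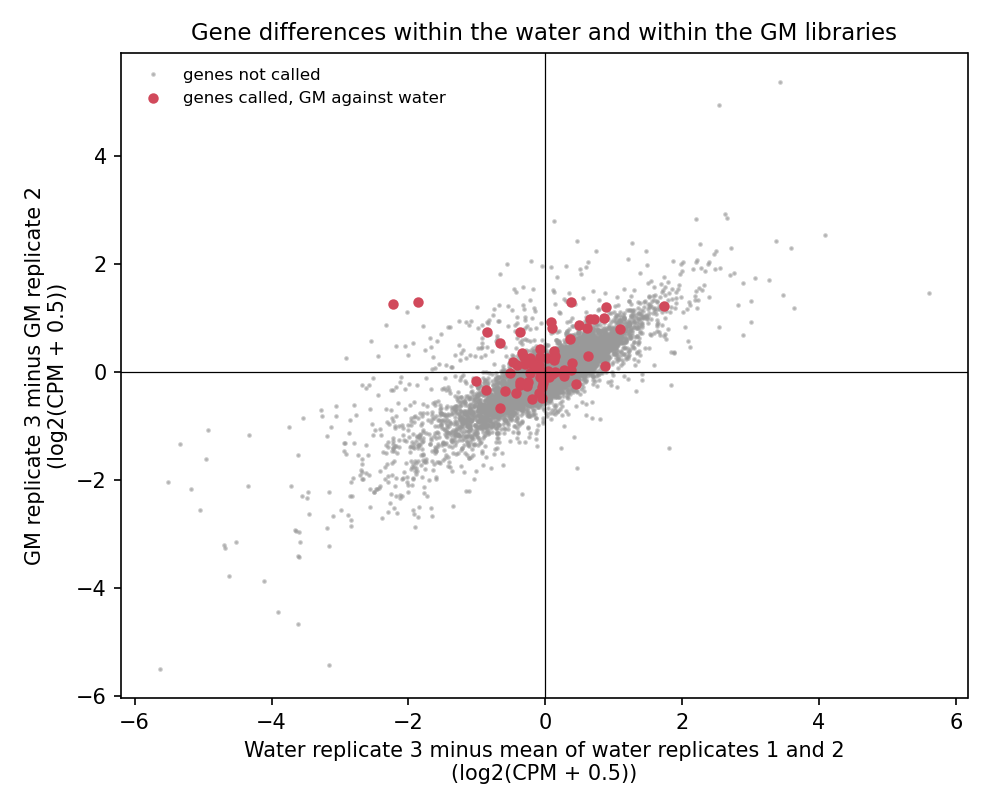
Each point is 1 of 8678 genes, at the difference of water replicate 3 from the mean of water replicates 1 and 2 and at the difference of GM replicate 3 from GM replicate 2, both on the log2(CPM + 0.5) scale. Grey points stretch along the diagonal to 5 and beyond. The 63 genes that passed the test are in red, and since the test weighs a change against the spread within groups, passing it selects genes near 0 on both axes.

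Gene lists show which programs lay on this axis. NRF2 targets, which defend against oxidants, were at -0.76, -0.63 and 0.86 with water and 0.52, -0.62 and 0.67 with GM, on the same relative log2 scale as above. Hmox1, the haem oxygenase, was at 553, 674 and 1851 CPM with water and 1975, 721 and 1933 with GM. Slc7a11, the cystine importer, was at 233, 280.2 and 1737 CPM with water and 1337, 412 and 1462 with GM. For both genes water replicate 3 and GM replicates 1 and 3 were high, and water replicates 1 and 2 and GM replicate 2 were low. Mitosis genes were at 0.99, 0.81 and -0.72 with water and -0.45, 0.63 and -1.11 with GM, in the opposite order. Top2a, the topoisomerase of dividing cells, was at 95.7, 77.6 and 15.6 CPM with water and 28.7, 70.2 and 15.4 with GM. MHC class II genes were at 0.84, 0.73 and -1.29 with water and -0.43, 0.66 and -0.52 with GM. Glycolysis and HIF-1 targets were at -0.35, -0.30 and 0.46 with water and 0.16, -0.16 and 0.26 with GM. C1qb, a chain of complement C1q, which macrophages make, was at 349, 362 and 97.6 CPM with water and 82.9, 261 and 83.2 with GM, also high in water replicates 1 and 2 and GM replicate 2. Dendritic cell markers were at 0.16, -0.0014 and -1.89 with water and 0.15, 1.38 and 0.17 with GM. As in MHC class II genes, water replicate 3 was the lowest water library and GM replicate 2 the highest GM library. In the dendritic cell list they were also the lowest and highest of all 6. Of these 5 lists only Pfkfb3 and Ccr7 passed by edgeR, as given above. Whether the spread has a source in handling, in the cultures or in the animals was not tested.

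Fits that share the spread with other libraries called more genes. The edgeR fit of all 18 libraries shares 1 spread with knockout and MDP groups that were taken to vary less. It was set aside as the main fit because it can call too many genes here. It called 609 genes higher (3.94%) and 120 lower (0.777%), all 94 among those higher. Of the 35 antiviral genes 27 rose in that fit, of the 18 GTPases 8, of the 19 MHC class I genes 10 and of the 33 cell death and inflammasome genes 15. In the fit of the 6 compared libraries 1 cell death gene rose, Mefv, which encodes pyrin and was at 4.03, 4.08 and 4.15 CPM with water and 12.6, 14.4 and 10.3 with GM (edgeR, log2 fold change 1.60, SE 0.20, adjusted p = 0.030). Its water libraries were almost equal, and without GM replicate 1 its adjusted p was 0.20. Dusp16, a phosphatase of JNK and p38 kinases, and Pde4b were the 2 that rose by edgeR among 31 brakes on signalling and mRNA, of which DESeq2 called 6 higher. Dusp16 was at 39.98, 36.8 and 37.5 CPM with water and 68.5, 61.7 and 61.4 with GM (log2 fold change 0.75, SE 0.10, adjusted p = 0.042), the smallest change of the 94. Marcksl1, a regulator of actin at the membrane, was at 49.7, 48.01 and 26.7 CPM with water and 144, 189.5 and 150.5 with GM (log2 fold change 1.96, SE 0.26, adjusted p = 0.037), and its lowest library was water replicate 3. By edgeR it was the 1 gene called of 25 cytoskeleton and dendrite genes, of which DESeq2 called 2 higher and 2 lower and limma voom with sample weights 4 higher and 9 lower. Neither Dusp16 nor Marcksl1 passed without GM replicate 1 (adjusted p 0.19 to 0.27).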

How the data were processed

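RNA of bone marrow-derived macrophages was sequenced from directional poly(A)-enriched libraries, per the labels' protocols, and 6 of 18 libraries are compared here. The deposited table holds raw read counts of 56748 genes; per the submitters' processing notes the authors aligned reads with HISAT2 2.0.5 to GRCm39 and counted them with featureCounts 1.5.0-p3, without the annotation release, the strand setting or the treatment of shared reads being given in the sources used here. FPKM values deposited by the authors served for levels per length and equalled counts divided by gene length and by 0.889 to 0.998 of each library's total. Counts were tested in R 4.3.3 with edgeR 4.0.16 (TMM over 18 libraries, genes kept by filterByExpr at a minimum of 10 counts, 15450 of them, robust quasi-likelihood fit of the 6 libraries, 2-sided, Benjamini-Hochberg adjusted p below 0.05). DESeq2 1.42.0, limma 3.58.1, other filters and scalings, other sets of libraries, a replicate block and each library left out were alternatives. The test was tried on simulated data, and the outcome of that trial is not given here.

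The comparison, gene lists and rules were chosen with earlier results of these data known. Named genes are the called genes with the largest changes outside cytokines at a mean of at least 10 CPM (up to 15), up to 12 in no list, up to 4 per list by p, the 10 lower genes with the smallest p, 8 per direction for water replicate 3, up to 5 noncoding RNAs, Tlr4, Nod2 and cell type markers. Others were chosen after their values were seen. Depth was 16876067 to 20615960 counts per library, and levels under 1 CPM rest on few counts. Whether the replicate numbers pair the samples is not stated in the labels, and the main fit did not pair them.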

Additional observations from a re-analysis of the deposited data

How the results depend on the processing

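Scaling and filters left the number of higher genes between 93 and 115, against 94, and without a filter on low counts 1 gene was lower and 5 of the 58 named genes that had passed no longer did. Other fits moved the counts. The DESeq2 test called 356 genes (338 higher, 18 lower), limma voom with sample weights 4594 (2295 and 2299), edgeR on all 18 libraries 729 (609 and 120) and edgeR on the 9 wild-type libraries 260 (258 and 2). All 94 were among the calls of each of these 4 fits, and the cause of the larger counts was not tested. With each library left out in turn, 0 to 288 genes passed, 0 to 231 higher and 0 to 57 lower. The lowest count was that without GM replicate 1 and the highest that without water replicate 3; 10, 20, 42 and 15 passed without water replicate 1, water replicate 2, GM replicate 2 and GM replicate 3. Of the 58 named genes that had passed, 58, 29, 44, 48, 39 and 0 no longer did without GM replicate 1, 2, 3 and water replicate 1, 2, 3. None of these 58 changed direction under any alternative; Hilpda, which did not pass (-0.03), was at 2.40 with limma voom with sample weights.

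With the replicate number as a block, 166 genes passed (165 higher, 1 lower), 90 of the 94 among them and all 58 named genes. The labels do not say whether equal numbers mark paired samples. The deviations of same-numbered libraries from their group means correlated at -0.23, 0.78 and 0.74 across genes. Water replicate 1 correlated most with GM replicate 2 (0.82), not with its own number. The deviations within a group sum to 0 and so are not independent, and these correlations cannot decide whether the samples are paired.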

Other observations

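Among the 43 genes that rose and are in none of the gene lists, several others are given here as values chosen after they were seen. Ly75, the endocytic lectin DEC-205, was at 37.5, 40.2 and 36.6 CPM with water and 84.8, 97.6 and 91.4 with GM (edgeR, log2 fold change 1.26, SE 0.11, adjusted p = 0.011). Osbpl3, a lipid-binding protein of the oxysterol-binding family, was at 16.2, 21.1 and 18.9 CPM with water and 68.6, 53.3 and 64.3 with GM (log2 fold change 1.73, SE 0.16, adjusted p = 0.015). Kdm4a, a demethylase of histone H3, was at 75.5, 75.7 and 83.8 CPM with water and 178, 146 and 180.4 with GM (log2 fold change 1.10, SE 0.13, adjusted p = 0.026). Skil, a repressor of TGF-beta signalling, was at 33.6, 33.8 and 44.2 CPM with water and 93.2, 91.2 and 102 with GM (log2 fold change 1.36, SE 0.14, adjusted p = 0.021). In all 4 genes the groups did not overlap and the water libraries differed by less than 1.5-fold. Il15ra, the receptor chain that presents interleukin 15, was at 4.13, 4.20 and 3.82 CPM with water and 10.03, 13.8 and 11.9 with GM (log2 fold change 1.56, SE 0.20, adjusted p = 0.032), and Il23r, a chain of the interleukin 23 receptor, was at 0.302, 0.304 and 0.0553 CPM with water and 5.65, 4.19 and 4.27 with GM (log2 fold change 4.37, SE 0.54, adjusted p = 0.030). H2-Q5, a class I gene with close copies and so of uncertain level, was at 3.28, 3.65 and 5.03 CPM with water and 13.7, 16.4 and 15.5 with GM (log2 fold change 1.93, SE 0.22, adjusted p = 0.026). None of the 7 passed without GM replicate 1 (adjusted p 0.087 to 0.19).

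Also outside the lists, Syt7, a calcium sensor for membrane fusion, was at 1.21, 0.852 and 0.940 CPM with water and 7.68, 5.63 and 7.93 with GM (log2 fold change 2.81, SE 0.29, adjusted p = 0.021 by edgeR), and Plppr4, a lipid phosphatase-related membrane protein, was at 1.36, 1.03 and 1.55 CPM with water and 10.03, 6.98 and 8.42 with GM (log2 fold change 2.68, SE 0.28, adjusted p = 0.021). Gls2, a glutaminase, was at 1.66, 1.83 and 1.16 CPM with water and 7.35, 5.80 and 7.08 with GM (log2 fold change 2.12, SE 0.28, adjusted p = 0.035), and Bcl2l14, of the BCL2 family, at 1.21, 1.40 and 1.05 CPM with water and 7.13, 6.33 and 7.81 with GM (log2 fold change 2.53, SE 0.25, adjusted p = 0.019). Each had its 3 water libraries below 2 CPM and its 3 GM libraries above 5. Dll4, a Notch ligand, was at 0.10, 0.061 and 0 CPM with water and 3.29, 1.56 and 4.33 with GM. Without GM replicate 1 these 5 did not pass (adjusted p 0.16 to 0.24).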
